A study of Mus musculus with 27 samples.

Results

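The Myc, Max and Mxd network is a set of transcription factors that compete for the same partner and the same DNA letters. Its members were taken by name from the gene count tables of both RNA-seq experiments, as *Myc*, *Max*, *Mxd1*, *Mxd3*, *Mxd4*, *Mxi1*, *Mnt*, *Mlx* and *Mga*. These are 9 of the 54532 genes in the tables, all protein coding, and all 9 were found in both experiments. The tables assign the bHLH family to every member except *Mga*, which they list as T-box.

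Myc is a short-lived activator that binds DNA as a pair with Max, and the pair prefers the E-box. Mxd1, Mxd3, Mxd4, Mxi1 and Mnt pair with Max instead and bring Sin3 and histone deacetylases to the same letters, while Mga pairs with Max inside a Polycomb complex. Mlx is a Max-like partner of Mnt, of some Mxd proteins and of the nutrient sensors Mlxip and Mlxipl. In B cells *Myc* is an early gene of activation that is tied to growth and ribosome production, and Mxd proteins are usually linked to rest or differentiation.

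B cells were isolated from the spleens of wild-type C57BL/6 mice by negative selection, and culture lasted 3 h. In experiment 1 they were left unstimulated, given lipopolysaccharide (LPS, a T cell-independent stimulus) or IL-4+anti-CD40 (which imitates T cell help), or given either stimulus with 1 μM disulfiram (DSF), with 4 libraries in each of these 5 groups. Figure captions of the study call the cells with an inhibitor pre-treated. In experiment 2 there was 1 library for each of the same 5 conditions and 1 more for each stimulus with 1 μM ibrutinib, an inhibitor of the B cell kinase BTK. Vehicle was DMSO for the groups without inhibitor, and the study calls the samples of this RNA-seq biologically independent. Whether each library came from a separate mouse is not stated in the sources used here, so p-values measure the spread between these libraries.

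Total counts were between 17804851 and 23632992 per library in experiment 1 and between 16049295 and 24619776 in experiment 2. All 6 B cell markers fixed for the check were present in every group. Their summed level was 2384 to 3235 FPKM in unstimulated cells and 1128 to 1711 FPKM in the others of experiment 1. FPKM are fragments scaled to gene length and to a library factor. In the deposited values this factor was not the total count, so levels and overlaps in FPKM carry that scaling. The unstimulated libraries fell into 2 pairs: libraries 1 and 2 stood apart from 3 and 4, and in 11% of genes the 4 levels spanned 2-fold or more, against 0.251% after LPS. Over the 6 neutrophil markers, libraries 1 and 2 summed to 58.0 and 55.6 FPKM and libraries 3 and 4 to 11.1 and 16.7 FPKM. Over the 6 erythroid markers they summed to 3.57 and 1.93 FPKM against 19.0 and 18.9 FPKM, and over the 6 myeloid markers to 344 and 335 FPKM against 427 and 440 FPKM, while stimulated libraries held 92.9 to 165 FPKM of the myeloid markers and the 7 libraries of experiment 2 held 16.1 to 35 FPKM. Of the neutrophil markers the libraries of experiment 2 held 0.769 to 3.20 FPKM, and of the erythroid markers 27.4 to 82.7 FPKM. The erythroid sums were highest with DSF, at 82.7 FPKM under LPS and 71.0 FPKM under IL-4+anti-CD40, beside 31.1 and 29.6 FPKM without inhibitor. What part such cells, if present, had in the values below was not tested. In bulk RNA, fewer cells of a type and less RNA per cell cannot be told apart. The libraries after IL-4+anti-CD40 also fell into a pair 1 and 2 and a pair 3 and 4 for *Mxd1*, *Mlx* and, less widely, *Myc*. Each result that rests on either group is therefore given with the pairs taken separately where that matters.

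The E-box is the shared target of the network, so the upstream sequences of its own genes are shown first. RefSeq promoters on GRCm38.p6 were matched by symbol for 8 of the 9 members, *Myc* being the one without an entry. The letters CACGTG lay in the 300 bases around the start of 4 of these 8 genes (*Max*, *Mxd4*, *Mnt* and *Mlx*), against 8.09% of all 27025 genes and 7.15% of all 32851 promoters in the table. They began 40 bases upstream of the start in *Mlx*, 123 bases upstream in *Mnt* and 219 bases upstream in *Mxd4*, and in *Max* they began 3 bases upstream and crossed the start itself. *Mxd1* had no E-box in this window and 1 match to the core of the antioxidant response element, TGACNNNGC, on the opposite strand 164 bases upstream. That core was found in 6 of the 8 members (*Max*, *Mxd1*, *Mxd3*, *Mxi1*, *Mlx* and *Mga*) and in 14.0% of all genes. *Mnt* and *Mxd4* had none. Whether the core bears on the response to DSF was not tested. The metal response core TGCGCNC was found in 4 of the 8 members and in 17.0% of all genes. Both strands were searched for each motif, and the matches are a description of letters, not of binding. The 8 members are too few to set against the shares of all genes, and no difference was tested. The 250 bases upstream of the start are given 5′ to 3′ on the strand of the gene, with the E-box in capitals for the first 3 and the antioxidant core in capitals for *Mxd1*:
Mlx: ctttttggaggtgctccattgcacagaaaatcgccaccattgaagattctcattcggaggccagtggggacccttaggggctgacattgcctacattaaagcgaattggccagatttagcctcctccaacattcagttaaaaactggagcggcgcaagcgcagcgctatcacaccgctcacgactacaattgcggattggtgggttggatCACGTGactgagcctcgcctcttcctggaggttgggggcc
Mnt: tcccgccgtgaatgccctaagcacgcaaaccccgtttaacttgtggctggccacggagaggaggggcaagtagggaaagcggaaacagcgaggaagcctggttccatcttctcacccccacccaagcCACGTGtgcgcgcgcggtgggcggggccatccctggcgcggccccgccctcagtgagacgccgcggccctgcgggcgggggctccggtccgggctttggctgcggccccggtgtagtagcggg
Mxd4: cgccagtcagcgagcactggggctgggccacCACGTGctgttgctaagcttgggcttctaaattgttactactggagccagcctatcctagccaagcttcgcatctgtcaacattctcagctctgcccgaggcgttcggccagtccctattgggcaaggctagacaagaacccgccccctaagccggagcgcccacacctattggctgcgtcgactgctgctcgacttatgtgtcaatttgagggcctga
Mxd1: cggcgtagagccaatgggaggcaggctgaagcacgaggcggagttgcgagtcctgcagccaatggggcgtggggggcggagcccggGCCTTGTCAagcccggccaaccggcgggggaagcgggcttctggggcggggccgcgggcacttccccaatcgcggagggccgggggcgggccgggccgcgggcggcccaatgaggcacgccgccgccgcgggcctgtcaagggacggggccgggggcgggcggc
These stretches are chr11:101087040-101087289 (plus strand) for *Mlx*, chr11:74830674-74830923 (plus) for *Mnt*, chr5:34187711-34187960 (minus) for *Mxd4* and chr6:86669160-86669409 (minus) for *Mxd1*. In *Mlx*, an antioxidant core that begins 36 bases upstream overlaps the E-box, and another begins 169 bases upstream. In *Mnt*, a metal response core follows the E-box directly, 117 bases upstream. The *Mxd1* stretch was the richest in G and C of the 4, at 78.4%, and the *Mlx* stretch the poorest, at 53.6%.

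LPS raised *Myc* 12.6-fold, *Mxd1* 2.66-fold and *Max* 1.82-fold, and lowered *Mxd4* 8.10-fold, *Mlx* 2.01-fold and *Mnt* 1.22-fold. IL-4+anti-CD40 raised *Myc* 5.33-fold, *Mxd1* 3.04-fold and *Mga* 1.42-fold, and lowered *Mxd4* 9.0-fold, *Mxi1* 4.55-fold, *Mxd3* 2.54-fold and *Mlx* 1.67-fold. In counts, 3 members were higher and 3 lower after LPS, when 29.6% of all genes tested were higher and 33.3% lower (by the quasi-likelihood test of edgeR at an adjusted p below 0.05). With IL-4+anti-CD40 3 were higher and 4 lower, against 30.4% and 32.1% of all genes. These counts lie near the shares of all genes, so the description rests on single members.

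With DSF, *Myc* was 1.35-fold lower under LPS and 1.54-fold lower under IL-4+anti-CD40, whereas *Mxd1* was 4.74-fold and 3.69-fold higher and *Mnt* 1.82-fold and 1.47-fold higher. *Mxi1* and *Mxd4* also rose under both stimuli, *Mlx* fell under both, and *Mga* rose under LPS and was not called under IL-4+anti-CD40 (0.059). *Max* and *Mxd3* were called under neither. Under LPS 5 members were higher and 2 lower with DSF, beside 35.1% and 36% of all genes, and under IL-4+anti-CD40 4 were higher and 2 lower, beside 30.1% and 31.6%. Scaled by total counts, 3 were higher and 3 lower under LPS, and the counts under IL-4+anti-CD40 stayed at 4 and 2. With shares this high among all genes, the number of members called sets the network apart from other genes in neither comparison, and the sizes and directions of single members carry the description.

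**Figure D1:**
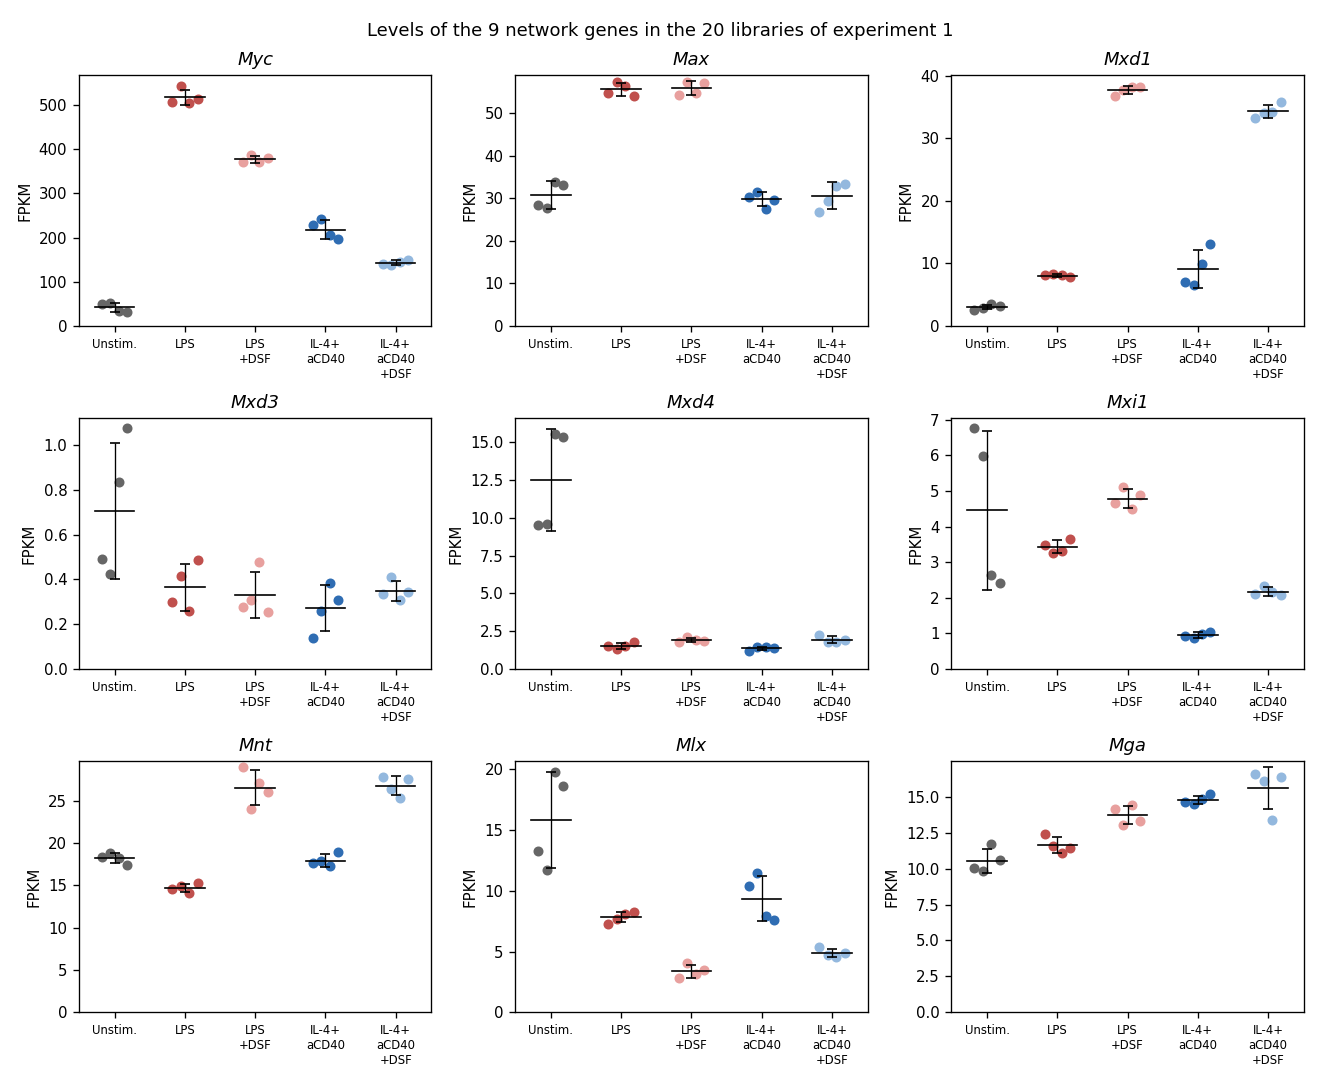
Levels of the 9 members in FPKM in the 20 libraries of experiment 1, 1 panel per gene on a linear axis from 0, with 1 point per library in replicate order, the mean as a long bar and the SD as an error bar. *Mxd1* stood at 33.3 FPKM or more in all 8 DSF libraries and at 13.1 FPKM or less in the other 12, while *Myc* was highest in the 4 LPS libraries.

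*Myc* (ENSMUSG00000022346, mm10 chr15:61985391-61990374, plus strand) stood above every other member in all 16 stimulated libraries of experiment 1 and in unstimulated libraries 1 and 2, while *Max* stood above it in unstimulated libraries 3 and 4. Its level was 50.5, 52.2, 32.8 and 31.2 FPKM in unstimulated cells, 507, 543, 505 and 513 FPKM after LPS and 229, 242, 205 and 196 FPKM after IL-4+anti-CD40. The 3 groups did not overlap, and the unstimulated libraries split into their 2 pairs. On the log2 scale the change against unstimulated cells was 3.65 ± 0.18 (SE, adjusted p = 1.07e-06) after LPS and 2.41 ± 0.18 (adjusted p = 9.78e-06) after IL-4+anti-CD40. Against the unstimulated pairs taken separately it was 3.36 and 4.04 after LPS and 2.09 and 2.79 after IL-4+anti-CD40. *Myc* was 2.45-fold higher after LPS than after IL-4+anti-CD40 (log2 1.3 ± 0.062, adjusted p = 1.51e-08).

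With DSF, *Myc* stood at 371, 386, 370 and 379 FPKM under LPS and at 140, 137, 145 and 150 FPKM under IL-4+anti-CD40. Each DSF group lay wholly below its stimulus and wholly above the unstimulated libraries. The change in log2 units was -0.44 ± 0.040 (adjusted p = 3.91e-10) under LPS and -0.63 ± 0.067 (adjusted p = 1.18e-05) under IL-4+anti-CD40. Under IL-4+anti-CD40 it was -0.73 with libraries 1 and 2 of the stimulated group and -0.51 with libraries 3 and 4, called both times. The order of the group means was therefore LPS, LPS with DSF, IL-4+anti-CD40, IL-4+anti-CD40 with DSF and unstimulated, with no overlap between neighbours. No gene of the annotation overlaps *Myc*.

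*Max* (ENSMUSG00000059436, mm10 chr12:76937269-76962201, minus strand), the common partner, depended on the stimulus and differed little with DSF. It stood at 28.4, 27.7, 33.9 and 33.1 FPKM in unstimulated cells, at 54.8, 57.3, 56.5 and 54.1 FPKM after LPS and at 30.2, 31.5, 27.6 and 29.7 FPKM after IL-4+anti-CD40. Only the LPS groups stood apart. Fitted by edgeR, the log2 change against unstimulated cells was 0.87 ± 0.087 after LPS (adjusted p = 4.25e-05) and -0.028 ± 0.094 after IL-4+anti-CD40 (adjusted p = 0.811). With DSF it stood at 54.3, 57.4, 54.8 and 57.2 FPKM under LPS and at 26.7, 29.5, 32.9 and 33.4 FPKM under IL-4+anti-CD40, overlapping the libraries without DSF both times. The difference with DSF was 0.025 ± 0.039 (adjusted p = 0.574) under LPS and 0.022 ± 0.074 (adjusted p = 0.814) under IL-4+anti-CD40. When libraries were scaled by total counts, which moved the median gene by -0.21, *Max* was lower with DSF under LPS, at -0.18 (adjusted p = 0.000139). Gm47218, a gene model on the same strand over *Max*, had means of 3.08 FPKM after LPS and 6.52 FPKM when DSF was added, and reads that both share are uncertain.

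*Mxd1* (ENSMUSG00000001156, mm10 chr6:86647042-86669161, minus strand), the classical Mxd repressor, had the largest DSF response of the 9 genes under both stimuli. It stood at 2.62, 2.92, 3.43 and 3.23 FPKM in unstimulated cells, at 8.08, 8.24, 8.10 and 7.82 FPKM after LPS and at 7.04, 6.51, 9.98 and 13.1 FPKM after IL-4+anti-CD40. Both stimuli lay above the unstimulated libraries, and those after IL-4+anti-CD40 spread widely, with libraries 3 and 4 above 1 and 2. Its log2 fold change was 1.41 ± 0.092 after LPS (adjusted p = 4.30e-06) and 1.60 ± 0.22 after IL-4+anti-CD40 (adjusted p = 0.000233). Between the 2 stimuli it was not called (LPS minus IL-4+anti-CD40 -0.14 ± 0.18, adjusted p = 0.593), and the difference was 0.31 against libraries 1 and 2 after IL-4+anti-CD40 and -0.49 against libraries 3 and 4, called in opposite directions.

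With DSF, *Mxd1* stood at 36.9, 37.7, 38.2 and 38.3 FPKM under LPS and at 33.3, 34.0, 34.2 and 35.8 FPKM under IL-4+anti-CD40. The 8 DSF libraries were close to each other and far above all others. On the log2 scale the change with DSF was 2.25 ± 0.041 under LPS (adjusted p = 4.97e-24) and 1.88 ± 0.19 under IL-4+anti-CD40 (adjusted p = 6.86e-06). Under IL-4+anti-CD40 it was 2.33 with libraries 1 and 2 of the stimulated group and 1.55 with libraries 3 and 4. The gene model Gm44292, which lies on the same strand over *Mxd1*, stood at 1.67 FPKM or less in every library of experiment 1. Its means were 0.105 FPKM after LPS and 1.08 FPKM under LPS plus DSF. Under IL-4+anti-CD40 they were 0.171 FPKM without DSF and 1.04 FPKM with it. In experiment 2 it stood at 3.06 FPKM under LPS with DSF and 3.93 FPKM under IL-4+anti-CD40 with DSF. Reads that both genes share are uncertain, and what part they had in *Mxd1* was not tested.

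*Mxd4* (ENSMUSG00000037235, mm10 chr5:34173883-34187720, minus strand), a repressor that is typical of resting cells, had the largest fall of the members on stimulation. It stood at 9.56, 9.57, 15.5 and 15.3 FPKM in unstimulated cells, at 1.51, 1.35, 1.49 and 1.78 FPKM after LPS and at 1.20, 1.46, 1.44 and 1.38 FPKM after IL-4+anti-CD40. The stimulated libraries overlapped each other and lay far below both unstimulated pairs. The change in log2 units was -3.02 ± 0.21 after LPS (adjusted p = 5.85e-06) and -3.17 ± 0.20 after IL-4+anti-CD40 (adjusted p = 4.60e-06), and the stimuli were not separated (adjusted p = 0.132). With DSF it stood at 1.76, 2.09, 1.93 and 1.87 FPKM under LPS and at 2.26, 1.81, 1.78 and 1.94 FPKM under IL-4+anti-CD40. The rise with DSF was small next to the fall: 0.34 ± 0.092 under LPS (adjusted p = 0.00183), where the groups overlapped, and 0.48 ± 0.10 under IL-4+anti-CD40 (adjusted p = 0.00176), where they did not. Scaling by total counts (0.14, adjusted p = 0.195) or fitting all 20 libraries together (0.32, adjusted p = 0.0825) ended the call under LPS.

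*Mxi1* (ENSMUSG00000025025, mm10 chr19:53310506-53375810, plus strand), another repressor of the Mxd kind, separated the 2 stimuli most. It stood at 3.49, 3.27, 3.32 and 3.66 FPKM after LPS and at 0.916, 0.881, 0.998 and 1.04 FPKM after IL-4+anti-CD40, a 3.71-fold difference (log2 1.89 ± 0.090, adjusted p = 1.35e-08). The unstimulated libraries held 6.75, 5.98, 2.65 and 2.43 FPKM, so that LPS lay below the pair 1 and 2 and above the pair 3 and 4. Its change after LPS was not called over all 4 unstimulated libraries (-0.35 ± 0.31, adjusted p = 0.349) and was called in opposite directions against the pairs, at -0.86 and 0.46. The fall after IL-4+anti-CD40 was called against both (-2.19 ± 0.33 over all 4, adjusted p = 0.000441, and -2.72 and -1.38 against the pairs).

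With DSF, *Mxi1* stood at 4.67, 5.10, 4.49 and 4.89 FPKM under LPS and at 2.11, 2.34, 2.17 and 2.08 FPKM under IL-4+anti-CD40. All 4 DSF libraries were above their stimulus in each case. Fitted by edgeR, the log2 change was 0.50 ± 0.071 (adjusted p = 7.54e-07) under LPS and 1.16 ± 0.10 (adjusted p = 3.62e-06) under IL-4+anti-CD40. With all 20 libraries in 1 fit the change under LPS, at 0.48, was not called (adjusted p = 0.0713).

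*Mnt* (ENSMUSG00000000282, mm10 chr11:74830920-74845725, plus strand), the repressor that most cells carry at a steady level, was nearly flat on stimulation. It stood at 18.4, 18.8, 18.2 and 17.4 FPKM in unstimulated cells, at 14.6, 14.9, 14.1 and 15.3 FPKM after LPS and at 17.7, 17.8, 17.3 and 19.0 FPKM after IL-4+anti-CD40. Only LPS lay below the unstimulated libraries (-0.29 ± 0.051, adjusted p = 0.00102), and the change after IL-4+anti-CD40 was -0.00063 ± 0.059 (adjusted p = 0.994). With DSF it stood at 28.9, 24.0, 27.1 and 26.1 FPKM under LPS and at 27.8, 26.3, 25.4 and 27.6 FPKM under IL-4+anti-CD40. These 8 libraries lay above all 12 others and overlapped each other. Its log2 fold change was 0.87 ± 0.052 under LPS (adjusted p = 1.17e-13) and 0.56 ± 0.054 under IL-4+anti-CD40 (adjusted p = 6.01e-06).

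*Mga* (ENSMUSG00000033943, mm10 chr2:119897228-119969581, plus strand), the Polycomb-linked member, varied within a narrow range. It stood at 10.1, 9.83, 11.7 and 10.6 FPKM in unstimulated cells, at 12.4, 11.6, 11.1 and 11.5 FPKM after LPS and at 14.6, 14.5, 14.8 and 15.2 FPKM after IL-4+anti-CD40. IL-4+anti-CD40 was above the other 2 (0.51 ± 0.077 against unstimulated, adjusted p = 0.000434), and LPS overlapped the unstimulated libraries (0.15 ± 0.076, adjusted p = 0.106). Against unstimulated libraries 1 and 2 it was called higher after LPS (0.25, adjusted p = 5.97e-05), as it was without library 3 (0.22, adjusted p = 0.0268), and against 3 and 4 it was not (0.089, adjusted p = 0.143). With DSF it stood at 14.1, 13.0, 14.4 and 13.3 FPKM under LPS, all above LPS alone (0.26 ± 0.044, adjusted p = 1.38e-05), and at 16.6, 16.1, 13.4 and 16.4 FPKM under IL-4+anti-CD40 (0.059 ± 0.067, adjusted p = 0.471). Scaled by total counts, the rise under LPS was 0.050 and not called (adjusted p = 0.335).

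*Mlx* (ENSMUSG00000017801, mm10 chr11:101087277-101092207, plus strand), the Max-like partner, fell with each stimulus and again with DSF. It stood at 13.3, 11.7, 19.8 and 18.6 FPKM in unstimulated cells, at 7.30, 7.71, 8.07 and 8.25 FPKM after LPS and at 10.4, 11.4, 7.96 and 7.58 FPKM after IL-4+anti-CD40. Neither stimulus overlapped the unstimulated libraries, and libraries 1 and 2 after IL-4+anti-CD40 lay just under the lower of the unstimulated pairs. On the log2 scale the change was -1.01 ± 0.18 after LPS (adjusted p = 0.00106) and -0.74 ± 0.21 after IL-4+anti-CD40 (adjusted p = 0.0125). The second call was lost against unstimulated libraries 1 and 2 alone (-0.41, adjusted p = 0.0566) and with stimulated libraries 1 and 2 alone (-0.50, adjusted p = 0.136).

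With DSF, *Mlx* stood at 2.79, 4.02, 3.19 and 3.49 FPKM under LPS and at 5.35, 4.71, 4.58 and 4.87 FPKM under IL-4+anti-CD40. Every DSF library was below every other library. The change in log2 units was -1.19 ± 0.10 under LPS (adjusted p = 2.26e-10) and -0.96 ± 0.13 under IL-4+anti-CD40 (adjusted p = 7.84e-05). Under IL-4+anti-CD40 it was -1.17 with libraries 1 and 2 of the stimulated group and -0.69 with libraries 3 and 4, called both times. *Psmc3ip*, a gene on the opposite strand that overlaps *Mlx*, was also lower with DSF in its means, at 1.3 against 2.24 FPKM under LPS and 1.60 against 3.10 FPKM under IL-4+anti-CD40. No strand setting is named for the counting, so reads where the 2 genes overlap are uncertain, and what part this had in *Mlx* was not tested.

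*Mxd3* (ENSMUSG00000021485, mm10 chr13:55325168-55329823, minus strand), a repressor known from dividing cells, was close to the limit of detection. Its level lay between 0.422 and 1.07 FPKM in unstimulated cells and between 0.138 and 0.486 FPKM in all stimulated libraries. The unstimulated group overlapped LPS, and over all 8 libraries the fall was called after IL-4+anti-CD40 (-1.35 ± 0.41, adjusted p = 0.0173, beside -0.93 ± 0.37, adjusted p = 0.0521, after LPS), a difference between stimuli that was not called itself (adjusted p = 0.304). The call after IL-4+anti-CD40 was lost against unstimulated libraries 1 and 2 (-0.73, adjusted p = 0.134) and with stimulated libraries 3 and 4 (-0.97, adjusted p = 0.143). After LPS a call was gained with total counts (adjusted p = 0.0186), with at least 10 counts in every library (0.0492), with all 20 libraries in 1 fit (0.0165), without unstimulated library 1 (0.0373) or 2 (0.0234) and against libraries 3 and 4 (-1.35, adjusted p = 0.000356). *Prelid1*, on the opposite strand over *Mxd3*, stood at 26.2 to 44.2 FPKM, far above it.

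**Figure D2:**
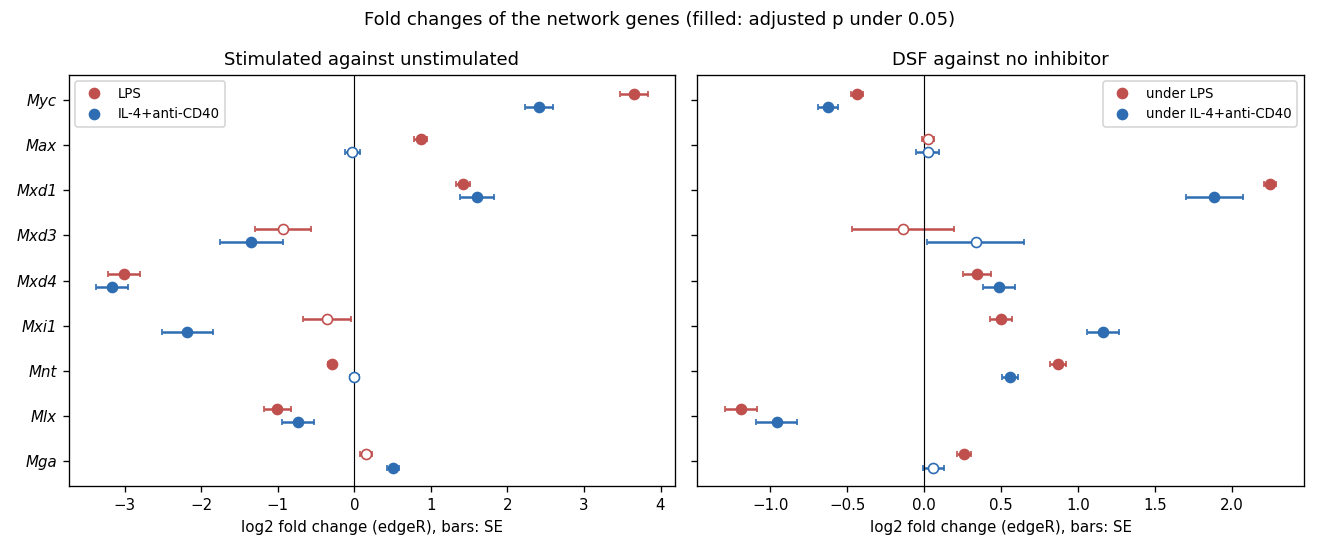
Log2 fold changes of the 9 members from edgeR with their SE, for each stimulus against unstimulated cells (left) and for DSF against the same stimulus alone (right), 4 libraries against 4, filled where the adjusted p was under 0.05. *Mxd4* fell most on stimulation (-3.02 and -3.17), and *Mxd1* rose most with DSF (2.25 and 1.88).

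The direct comparison of the 2 stimuli asked whether they set the network differently. *Mxi1*, *Myc* and *Max* were higher after LPS, by 3.71-, 2.45- and 1.94-fold, and *Mga* and *Mnt* were lower after LPS, by 1.23- and 1.18-fold. These 3 higher and 2 lower members stood beside 22.3% and 17.3% of all genes. *Mxd1*, *Mxd3*, *Mxd4* and *Mlx* were not called over all 8 libraries. *Mlx* stood at -0.21 ± 0.12 (adjusted p = 0.211), and was called with total counts (-0.34, adjusted p = 0.0347) and against IL-4+anti-CD40 libraries 1 and 2 (-0.42, adjusted p = 0.000480) but not against 3 and 4 (0.032, adjusted p = 0.824).

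Whether DSF acted differently under the 2 stimuli was tested with an interaction term over 16 libraries. The rise of *Mnt* was larger under LPS by 0.30 ± 0.078 on the log2 scale (adjusted p = 0.0112), and the rise of *Mxi1* was smaller under LPS, with a difference of -0.67 ± 0.11 (adjusted p = 0.000277). These were 1 member higher and 1 lower, beside 7.92% and 6.96% of all genes. With all 20 libraries in 1 fit neither was called (adjusted p = 0.0945 for *Mnt* and 0.208 for *Mxi1*). For *Myc* the difference was 0.19 ± 0.080 (adjusted p = 0.130) and for *Mxd1* 0.35 ± 0.19 (adjusted p = 0.240). Both depended on the IL-4+anti-CD40 libraries. With libraries 1 and 2 alone *Myc* was called at 0.29 (adjusted p = 0.00289) and *Mxd1* stood at -0.086 (adjusted p = 0.434), and with 3 and 4 alone *Myc* stood at 0.065 (adjusted p = 0.554) and *Mxd1* was called at 0.69 (adjusted p = 9.27e-06). *Mlx*, at -0.24 ± 0.18 (adjusted p = 0.413), was also called with 3 and 4 alone (-0.50, adjusted p = 0.0218). Leaving out single libraries gave a call for *Myc* without library 4 (0.23, adjusted p = 0.0370) and for *Mxd1* without library 2 (0.49, adjusted p = 0.0466).

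Cells with a stimulus and DSF were also set against unstimulated cells, which are shared with the comparisons above. Under LPS with DSF, 5 members were higher (*Mxd1* 12.4-fold, *Myc* 9.09-fold, *Max* 1.82-fold, *Mnt* 1.46-fold and *Mga* 1.31-fold) and 3 lower (*Mxd4* 6.51-fold, *Mlx* 4.68-fold and *Mxd3* 2.13-fold), beside 34.3% and 37.3% of all genes. Under IL-4+anti-CD40 with DSF, 4 were higher (*Mxd1* 11.3-fold, *Myc* 3.47-fold, *Mga* 1.49-fold and *Mnt* 1.48-fold) and 4 lower (*Mxd4* 6.38-fold, *Mlx* 3.23-fold, *Mxi1* 2.03-fold and *Mxd3* 2.00-fold), beside 33.4% and 35.3%. The fold of *Mxd1* was above that of *Myc* in both, and the difference between the genes was not tested. *Mxi1* again depended on the unstimulated pair: under LPS with DSF it was -0.44 against libraries 1 and 2 and 0.91 against 3 and 4, and under IL-4+anti-CD40 with DSF its fall was not called against 3 and 4 (-0.22, adjusted p = 0.0755). The calls of *Mxd3* were lost when any of several single libraries was left out, with adjusted p up to 0.0720 under LPS with DSF and 0.0669 under IL-4+anti-CD40 with DSF. Under LPS with DSF, scaling by total counts also ended the call of *Mnt* (0.14, adjusted p = 0.131) and of *Mga* (-0.020), leaving 3 members higher and 3 lower.

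**Figure D3:**
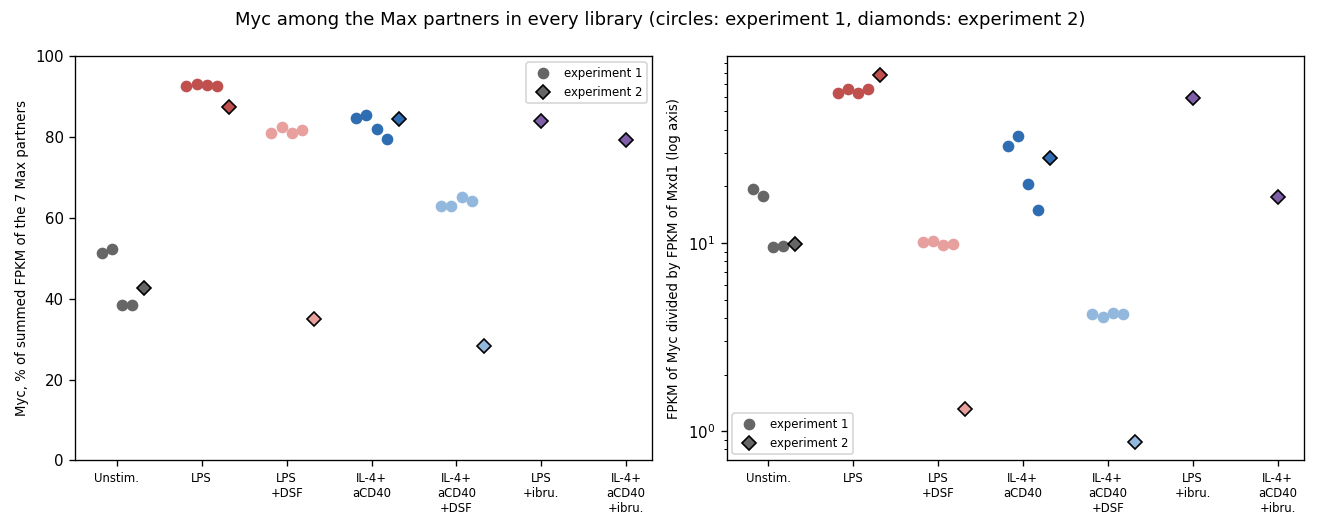
Left, the share of *Myc* in the summed FPKM of the 7 genes whose proteins pair with Max, and right, the FPKM of *Myc* divided by that of *Mxd1* on a log axis, 1 point per library, with experiment 1 as circles, experiment 2 as diamonds and ibrutinib in purple. The ratio was 62.4 to 65.9 after LPS and 9.70 to 10.2 under LPS plus DSF in experiment 1.

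Since FPKM is scaled to gene length, the levels of the members are set side by side within each library. *Myc* made up 38.4 to 52.3% of the summed FPKM of 7 genes whose proteins pair with Max (*Myc*, *Mxd1*, *Mxd3*, *Mxd4*, *Mxi1*, *Mnt* and *Mga*) in unstimulated cells, 92.6 to 93.2% after LPS and 79.7 to 85.4% after IL-4+anti-CD40. With DSF this share was 81.0 to 82.4% under LPS and 62.9 to 65.3% under IL-4+anti-CD40, below every library of the same stimulus alone. The share of *Mxd1* was 1.41 to 1.49% after LPS and 8.05 to 8.36% under LPS plus DSF, and 2.30 to 5.33% after IL-4+anti-CD40 and 15 to 15.6% with DSF. The 6 partners other than *Myc* summed to 38.3 to 40.5 FPKM after LPS and to 82.3 to 86.6 FPKM under LPS plus DSF. These shares follow from the levels above, describe mRNA and not protein, and carry no test. They also rest on a single length per gene (2717 bases for *Myc*, 7072 for *Mxd1* and 8483 for *Mxd4*), whichever transcripts were present.

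Experiment 2 gave each condition in 1 library, so its ratios have no replicate check. *Myc* stood at 33.5 FPKM in unstimulated cells, 259 FPKM after LPS and 192 FPKM after IL-4+anti-CD40, *Mxd4* at 10.3, 2.67 and 1.20 FPKM, and *Mxi1* at 6.60, 4.94 and 1.55 FPKM. These 3 genes gave the members past 2-fold on stimulation, 2 of 9 after LPS (18.5% of all genes in either direction) and 3 of 9 after IL-4+anti-CD40 (24.4%). *Max* and *Mxd1* did not move after LPS here as they did in experiment 1. *Max* stood at 34.8 FPKM in both libraries (log2 ratio 0.0043, against 0.87 in experiment 1), and *Mxd1* at 3.38 FPKM in unstimulated cells and 3.31 FPKM after LPS (-0.025, against 1.41).

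In experiment 2 the ratios with 1 μM DSF had the signs of experiment 1 for *Myc*, *Mxd1*, *Mxd4*, *Mxi1*, *Mnt* and *Mlx*. *Myc* stood at 56.6 FPKM under LPS with DSF and 40.3 FPKM under IL-4+anti-CD40 with DSF, log2 ratios of -2.19 and -2.24 where experiment 1 gave -0.44 and -0.63. *Mxd1* stood at 43.2 and 45.9 FPKM, ratios of 3.70 and 2.77. *Mnt* stood at 40.8 and 35.3 FPKM, ratios of 1.29 and 1.25, and *Mlx* at 3.25 and 3.64 FPKM, ratios of -1.24 and -1.15. In all, 4 of 9 members were past 2-fold under LPS, beside 39.8% of all genes, and 6 of 9 under IL-4+anti-CD40, beside 42.2%, where *Mxd4* (1.75) and *Mxi1* (1.58) joined them. Scaled by total counts, *Mnt* under LPS was at 0.99, which left 3 members. *Myc* made up 35.1% of the summed FPKM of the Max partners under LPS with DSF and 28.3% under IL-4+anti-CD40 with DSF, below the 42.7% of the unstimulated library. The difference between the experiments was not tested, since experiment 2 had no replicates.

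**Figure D4:**
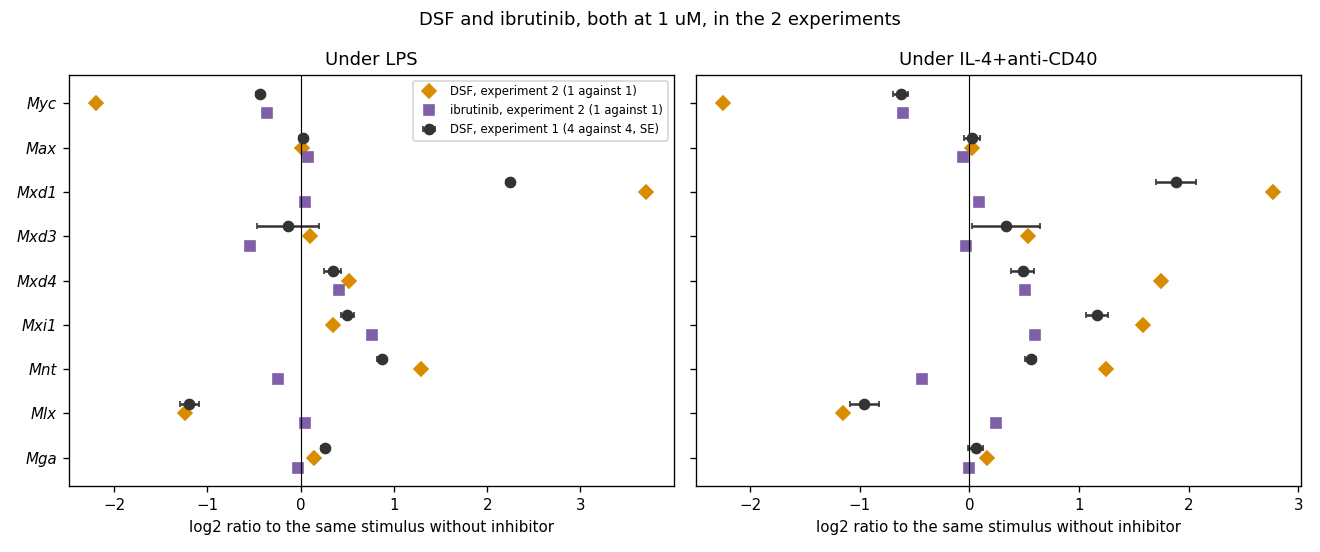
Log2 ratios of the 9 members to the same stimulus without inhibitor, under LPS (left) and IL-4+anti-CD40 (right), for DSF in experiment 1 (edgeR, with SE), DSF in experiment 2 and ibrutinib in experiment 2, both ratios of experiment 2 from 1 library against 1. Ibrutinib moved no member past 2-fold, and the ratios of *Myc* with DSF in experiment 2 were -2.19 and -2.24.

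Ibrutinib at 1 μM, the other inhibitor of experiment 2, moved no member past 2-fold under LPS (5.28% of all genes were) or under IL-4+anti-CD40 (3.92%). *Myc* stood at 200 FPKM with ibrutinib under LPS and 126 FPKM under IL-4+anti-CD40, log2 ratios of -0.36 and -0.60. *Mxi1* had the highest ratio of the members under both stimuli, at 0.77 and 0.60, followed by *Mxd4* at 0.41 and 0.51. *Mxd1*, at 3.37 and 7.18 FPKM, had ratios of 0.044 and 0.090, while *Mnt* was at -0.24 and -0.43, the opposite side from DSF. The Myc share of the Max partners was 83.9% and 79.4% with ibrutinib, beside 87.4% and 84.6% without.

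The genes around the network were read from lists that were written by hand with earlier results of these data known. Their counts are therefore a description and not independent support. Of 57 genes taken as induced by Myc, mostly factors of ribosome production, nucleotide synthesis and metabolism, 55 were higher and 2 lower under each stimulus, and they were the same 55 and the same 2. Of all genes 29.6% were higher and 33.3% lower after LPS, and 30.4% and 32.1% after IL-4+anti-CD40. Their median log2 fold change was 1.44 after LPS and 1.65 after IL-4+anti-CD40, beside -0.046 and -0.041 over all genes. The highest was the cyclin gene *Ccnd2* (4.16 after LPS and 4.31 after IL-4+anti-CD40), with the glycolytic enzyme *Hk2* at 2.73 and 2.05, and the 2 lower genes were *Tert* (-1.44 and -1.12), the telomerase subunit, and *Prps2* (-0.62 and -1.17), an enzyme of nucleotide precursor supply.

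With DSF, 43 of these 57 genes were lower and 5 higher under LPS, with a median of -0.43, and 49 lower and 3 higher under IL-4+anti-CD40, with a median of -0.62, beside 0.0019 and -0.015 over all genes. All 43 genes that were lower under LPS were among the 49. Of all genes 36% were lower and 35.1% higher with DSF under LPS, and 31.6% and 30.1% under IL-4+anti-CD40. *Cad*, the first enzyme of pyrimidine synthesis, fell most under both stimuli (-1.81 each), followed by *Prps2* under LPS (-1.77, and -1.30 under IL-4+anti-CD40) and *Ccnd2* under IL-4+anti-CD40 (-1.70, and -0.97 under LPS), with *Hk2* at -1.35 and -1.51. *Prps2* had also been lower after each stimulus. The genes that rose were led by *Hspe1* (1.71 and 1.61) and *Hspd1* (0.95 and 0.84), the mitochondrial chaperonins, which are also known as heat shock genes. The list was still above its unstimulated level with DSF, with a median of 1.10 under LPS and 1.03 under IL-4+anti-CD40. The DSF effect differed between the stimuli for 17 of these genes, 16 of them less negative or more positive under LPS. In that interaction 7.92% of all genes were higher and 6.96% lower. In experiment 2, 32 of the 57 were lower by 2-fold or more with DSF under LPS and 39 under IL-4+anti-CD40, with medians of -1.10 and -1.27, and none passed 2-fold with ibrutinib (medians of -0.35 under each stimulus).

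Of 13 genes taken as repressed by Myc, which include inhibitors of the cell cycle, 10 were tested for each stimulus against unstimulated cells. For DSF 10 were tested under LPS and 11 under IL-4+anti-CD40. With DSF 7 were higher and 2 lower under LPS, with a median of 1.16, beside 35.1% and 36% of all genes. Under IL-4+anti-CD40 9 were higher and none lower, with a median of 1.04, beside 30.1% and 31.6%. Total counts gave 7 and 1 under IL-4+anti-CD40. *Cdkn1a*, the p21 inhibitor that p53 and stress also raise, rose by 2.37 and 1.47, *Hbp1* by 1.77 and 1.73, and *Ndrg1* by 1.62 and 2.43. *Gas2* (-1.23) and *Cebpd* (-0.78) were the 2 that fell under LPS, and stood at -0.68 and -0.020, not called, under IL-4+anti-CD40. On stimulation the list was divided. After LPS 3 were higher and 5 lower, beside 29.6% and 33.3% of all genes. After IL-4+anti-CD40 2 were higher and 6 lower (1 and 7 with total counts), beside 30.4% and 32.1%. *Cdkn1a* was higher (2.44 and 2.33) and *Cdkn1b*, the p27 inhibitor of resting cells, lower (-1.89 and -2.08). *Thbs1* fell most after IL-4+anti-CD40 (-4.01) and was not called after LPS (1.14).

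**Figure D5:**
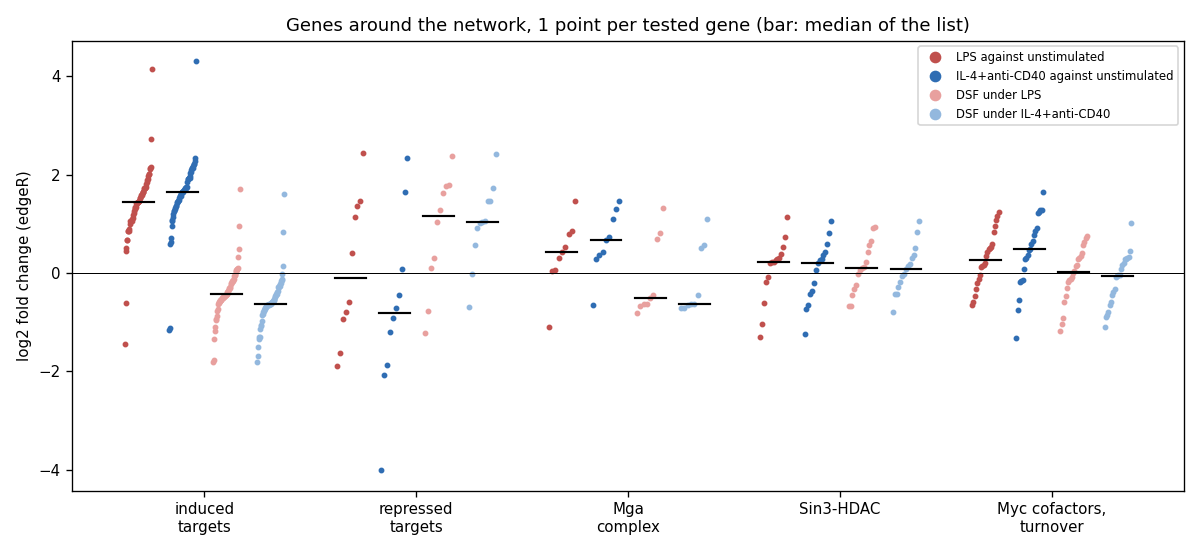
Log2 fold changes from edgeR for the genes of 5 lists around the network, 1 point per tested gene, sorted within each comparison, with the median of the list as a bar. The induced targets have medians of 1.44 and 1.65 on stimulation and of -0.43 and -0.62 with DSF.

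Of 15 genes of the Sin3 and histone deacetylase complex, through which Mxd proteins and Mnt act, 8 were higher and 5 lower with DSF under LPS and 6 higher and 5 lower under IL-4+anti-CD40, with medians of 0.10 and 0.072, beside 35.1% and 36% and then 30.1% and 31.6% of all genes. On stimulation 10 were higher and 4 lower after LPS, beside 29.6% and 33.3% of all genes. After IL-4+anti-CD40 7 were higher and 5 lower, beside 30.4% and 32.1%. With total counts these were 2 and 5 after LPS and 4 and 6 after IL-4+anti-CD40. With total counts both DSF medians were below 0 (-0.11 and -0.077), with 5 higher and 7 lower under LPS and 4 higher and 6 lower under IL-4+anti-CD40. Of 9 genes of the Polycomb complex that holds Mga, 8 were higher after IL-4+anti-CD40 and 6 after LPS, 1 being lower each time, and total counts gave 5 higher and 1 lower after IL-4+anti-CD40 and 4 higher and 2 lower after LPS. With DSF 3 of them were higher and 6 lower under each stimulus, with medians of -0.51 and -0.63. The shares of all genes beside these counts are those given for the Sin3 list. *E2f6*, a DNA-binding subunit, rose by 1.32 and 1.10, as did *Rybp* (0.81 and 0.52) and *Rnf2* (0.69 and 0.58), and *Cbx3* fell by 0.82 and 0.63.

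Of 22 cofactors and turnover factors of Myc, 9 were higher and 9 lower with DSF under LPS, and 7 higher and 9 lower under IL-4+anti-CD40, but 6 and 11 and then 4 and 11 with total counts. Of all genes 35.1% and 36% were higher and lower in the first comparison and 30.1% and 31.6% in the second. The acetyltransferase gene *Kat2a* fell most (-1.18 and -1.11) and *Ruvbl1*, a helicase that joins Myc in chromatin complexes, fell by 0.92 and 0.89. *Skp2*, a ubiquitin ligase subunit that acts on Myc, fell by 1.04 and 0.79, while *Hcfc1* (0.76 and 0.31) and *Kat5* (0.72 and 0.45) rose, *Hcfc1* more under LPS by the interaction (0.45, adjusted p = 0.00440). *Bin1*, a protein that binds and restrains Myc, rose by 0.62 and 1.02. With stimulation 12 of the 22 were higher and 3 lower after LPS (9 and 7 with total counts), beside 29.6% and 33.3% of all genes. After IL-4+anti-CD40 14 were higher and 4 lower, beside 30.4% and 32.1%. *Usp36*, a deubiquitinase of Myc, was highest at 1.25 and 1.64, and fell with DSF (-0.46 and -0.85).

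Among 8 further genes of the extended network, 6 were tested, *Mycn* and *Mlxipl* being below the filter. After LPS 3 were higher and 3 lower, beside 29.6% and 33.3% of all genes. After IL-4+anti-CD40 these were 2 and 3, beside 30.4% and 32.1%. With DSF 1 was higher and 3 lower under LPS (0 and 4 with total counts), beside 35.1% and 36%. Under IL-4+anti-CD40 none was higher and 3 were lower with DSF, beside 30.1% and 31.6%. *Pvt1*, the noncoding neighbour of *Myc*, rose by 1.40 after LPS and 1.51 after IL-4+anti-CD40. *Tfap4*, an E-box factor that Myc induces, rose on stimulation (0.56 and 0.71) and fell with DSF (-1.38 and -1.18). *Usf1*, another E-box factor, fell by 0.58 after LPS and by 1.79 after IL-4+anti-CD40, and *Mycl* fell by 1.16 and 1.58.

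By likeness to *Myc* across the 20 libraries of experiment 1, the closest of 15574 genes were *Tomm70a* (Pearson's r = 0.994 on log2 normalized counts), *Gm2065* (0.982), *Il6* (0.981), *Foxj1* (0.979) and *Nfkb2* (0.978). *Tomm70a*, a receptor of mitochondrial import, had group means of 13.3 FPKM in unstimulated cells, 37.5 after LPS, 32.9 under LPS plus DSF, 26.0 after IL-4+anti-CD40 and 23.1 under IL-4+anti-CD40 plus DSF, the same order as *Myc*. Of the other members, *Max* had r = 0.72 with *Myc*, *Mxd1* 0.50, *Mga* 0.30, *Mxi1* 0.028, *Mnt* -0.047, *Mxd3* -0.60, *Mlx* -0.63 and *Mxd4* -0.86. These values describe 20 libraries in 5 groups, which share their group levels, and carry no p. The letters CACGTG were found near the start of 17 of the 48 induced targets with a promoter entry, beside 8.09% of all genes. The metal response core was found in 21 of these 48, beside 17.0%, and the antioxidant core in 5, beside 14.0%. Of 9 repressed targets 0 had the E-box, and 9 genes are too few to set against 8.09%.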

How the data were processed

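Gene counts of 27 libraries (20 in experiment 1, 7 in experiment 2) were deposited by the authors without normalization, after mapping to mm10 with HISAT2 2.0.5 and counting with featureCounts 1.5.0-p3 (versions from the submitters' processing notes). The strand setting is not given in the sources used here. The authors also deposited FPKM, which they computed from these counts, and levels are printed in that unit. All counts of experiment 1 were tested with edgeR 4.0.16 in R 4.3.3 (TMM, filterByExpr, quasi-likelihood, 8 libraries per comparison and 16 for the interaction), with Benjamini-Hochberg adjustment over all genes tested and a threshold of 0.05. Experiment 2 was compared as log2 ratios of TMM-normalized counts (prior count of 2, mean of at least 10 counts). Fits were first tested on simulated data. Alternatives used DESeq2 1.42.0, limma 3.58.1 on log2(FPKM + 0.1), other scalings and filters, a replicate block, a minimum log2 fold change of 1 and leaving out each library.

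Members and lists were chosen with earlier results of these data known. All 9 members are named, plus the 5 genes most correlated with *Myc*. From each list, examples with large changes among the genes called are named, and these are not always the largest. For most, the value under the other stimulus is given beside it. The 2 genes below the filter were named after their values were seen. Total counts were between 16049295 and 24619776 per library.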

Additional observations from a re-analysis of the deposited data

Results flagged for a closer look

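*Mga* in replicate 3 of IL-4+anti-CD40 with DSF stood at 13.4 FPKM, apart from the other 3 libraries of its group at 16.1 to 16.6 FPKM, with a gap of 0.844 of the group's range, past the 95% limit of Dixon's test for 4 libraries. It was the only one of 45 groups of 4 to pass, and chance alone flags about 1 in 20. Without this library the rise of *Mga* with DSF under IL-4+anti-CD40 was 0.13 and was called (edgeR, adjusted p = 0.0394).

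The effect of DSF differed between the stimuli, by the interaction term, for *Mxi1* (LPS minus IL-4+anti-CD40, -0.67 on the log2 scale) and for *Mnt* (0.30). Both kept their call when the IL-4+anti-CD40 libraries were taken in pairs (-0.76 and -0.58 for *Mxi1*, 0.28 and 0.32 for *Mnt*), and neither was called with all 20 libraries in 1 fit.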

How the results depend on the processing

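Of 1589 member values under alternatives, 1489 stayed on their side of the threshold or, in experiment 2, moved by less than the counting error. That error was computed from the counts of the 2 libraries compared and holds no variation between replicates. Among these, 53 values that were called in neither setting changed sign, most of them of *Max*. A minimum log2 fold change of 1 left 3 members with LPS, 4 after IL-4+anti-CD40, 2 between the stimuli, 1 with DSF under each stimulus (*Mxd1*), and 4 each for DSF-treated against unstimulated cells. The interaction gave 0 members with all 20 libraries in 1 fit, and 4 after IL-4+anti-CD40 libraries 3 and 4 only, a setting chosen after seeing the data, as was every use of library pairs. Among values called in either setting, directions turned for *Mxi1* with LPS (0.46, unstimulated libraries 3 and 4 only) and with LPS and DSF against unstimulated cells (-0.44, libraries 1 and 2 only), for *Mxd1* between the stimuli (0.31, IL-4+anti-CD40 libraries 1 and 2 only), and with total counts for *Max* (-0.18 with DSF under LPS, and -0.30 for IL-4+anti-CD40 with DSF against unstimulated cells) and *Mga* (-0.020 for LPS with DSF against unstimulated cells). Total counts moved the median gene by -0.43 to -0.14 in the comparisons of 2 groups. A replicate block gave 6, 6, 5, 7, 6, 2, 8 and 7 members called over the 8 comparisons. It ended the calls of *Mlx* after IL-4+anti-CD40 (adjusted p = 0.0553) and of *Mxd3* for IL-4+anti-CD40 with DSF against unstimulated cells (0.0594). The replicate numbers share only a number: correlations of same-numbered libraries lay between -0.056 and 0.169 over 28 pairs. Leaving out 1 library kept 632 of 648 member values on their side. *Mxd3* held 7 to 58 counts per library, too few for a firm statement.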
